A study of Homo sapiens with 6 samples.

Results

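Genes for the making, sensing and breakdown of prostaglandins were followed by RNA-seq in A549 cells, as the labels name them. A549 is an established cell line from a lung adenocarcinoma. The genes are PLA2G4A, PTGS1, PTGS2, PTGES, PTGES2, PTGES3, PTGIS, PTGER4, HPGD and PTGR1, that is 10 of the 16779 genes listed in the deposited tables, taken by symbol. The series holds 3 libraries labelled control, with the genotype WT, and 3 labelled RN7SK-KO, with the genotype RN7SK knockout. The product of RN7SK is the noncoding 7SK RNA, which keeps P-TEFb, a kinase of transcription elongation, inactive. By the labels, the comparison is between cells with this RNA and cells lacking it. How the knockout was made, whether it is 1 clone, and whether the libraries of a group came from separate cultures is not stated in the labels, so the spread below may be technical. The 10 genes were chosen with their difference between these 2 groups known. Their values are therefore a description and carry no test.

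Prostaglandins are short-lived lipid signals made from arachidonic acid. Cytosolic phospholipase A2 frees arachidonic acid from membranes, a cyclooxygenase turns it into prostaglandin H2, and a terminal synthase turns that into prostaglandin E2, prostacyclin or another prostanoid. The products leave the cell and act on receptors of the cell surface, and uptake and oxidation end the signal. In lung carcinoma the inducible cyclooxygenase and prostaglandin E2 are known for their link with growth and inflammation.

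The labels could be checked only in part. The tables held 0 rows for RN7SK. CDKN2A and CDKN2B, which A549 cells are known to lack, had 923 to 1005 and 216 to 241 counts in the control libraries but 0 to 2 and 0 to 1 in the knockout libraries, so the control libraries go against their cell line label. A difference in cell line and the loss of RN7SK cannot be told apart in any comparison below. Each group is called by its label, and higher or lower always means in the libraries labelled knockout. Of 13 lung epithelial markers in the tables, KRT19, SFTPA1, SFTPB, SFTPC and SFTPD had at most 6 counts in every library, and the summed level of all 13 was 3367 to 3586 CPM (counts scaled to library size and by the trimmed mean of M values) in control and 6028 to 6151 CPM in knockout libraries. Most of this sum was KRT7, KRT8 and KRT18, with means of 510, 1544 and 1323 CPM in control and 1278, 2965 and 1605 CPM in knockout libraries. Mean CDH1 was 29.2 CPM in control and 158 CPM in knockout libraries, and mean ABCA3 81.6 and 83.5 CPM. EPCAM, NKX2-1 and NAPSA had at most 12, 11 and 26 counts in any library. Summed endothelial markers (9 genes) were at 162 to 175 CPM in control and 4.19 to 4.92 CPM in knockout libraries, while PECAM1, VWF, TIE1 and TEK had at most 6 counts anywhere. Nearly all of the control sum was ESAM and ENG, with means of 110 and 54.6 CPM in control and 2.92 and 0.235 CPM in knockout libraries. KDR went the other way, from a mean of 0.089 to 0.638 CPM, and so did PECAM1, VWF and TEK at their few counts. Summed fibroblast markers (10 genes, COL1A2, COL3A1 and DCN at most 6 counts) were at 73.8 to 78.0 CPM in control and 116 to 124 CPM in knockout libraries. Most of that sum was COL5A2, with means of 47.8 CPM in control and 81.0 CPM in knockout libraries. FBN1 went the other way, from a mean of 22.3 to 16.6 CPM, and so did LUM, from 0.389 to 0.129 CPM. The part of these marker differences in the results below was not tested, and in bulk RNA fewer cells of a kind and less RNA per cell cannot be told apart. Total counts were 16018260 to 19357144 per library.

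Of the 10 genes, 8 had enough reads for the fit across all genes, and PTGS1 and PTGIS did not. By edgeR's quasi-likelihood test at an adjusted p of 0.05, 5 of the 8 were called higher and 2 lower, where 85% of all 12929 tested genes were called, 42% higher and 43% lower. The CPM ranges of the groups were apart for all 8, as they were for 85.6% of all tested genes. These shares show how far apart the groups stand as a whole, and since the genes were chosen on this contrast nothing is read from their counts. What follows gives the values in the order of the pathway.

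**Figure D1:**
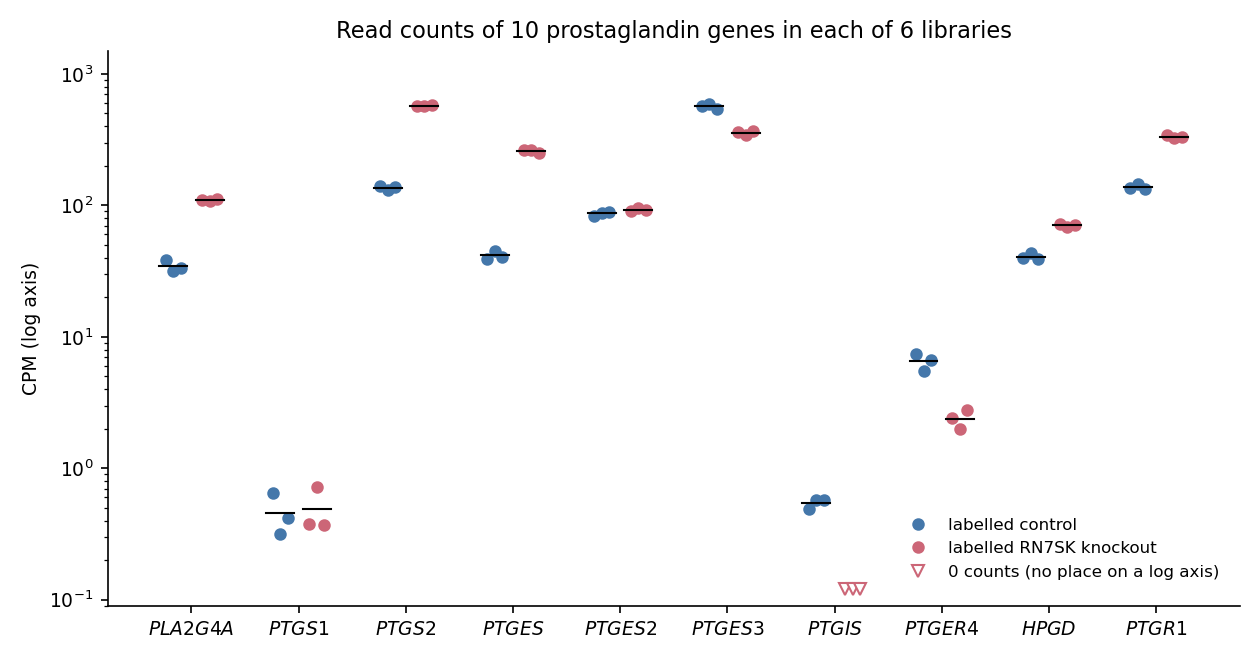
CPM on a log axis (vertical) of the 10 genes (horizontal, in pathway order) in each of 3 control and 3 knockout libraries; points are libraries, black bars are group means, and open triangles mark 0 counts. PTGS2 lies at 131 to 140.3 CPM in control and 568 to 578 CPM in knockout libraries, and PTGIS has 0 counts in all knockout libraries.

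PLA2G4A encodes the cytosolic phospholipase A2 that frees arachidonic acid. Its level was 38.7, 31.5 and 33.5 CPM in control replicates 1 to 3 and 109, 107 and 111 CPM in knockout replicates 1 to 3. All knockout libraries lay well above all control libraries, and the ratio of means was 3.16. The fitted log2 fold change was 1.66 ± 0.062 (SE, n = 3 per group). The gene lies on chromosome 1 (186828949 to 186988981, GRCh38), with 148525 bases between it and PTGS2 and 0 protein-coding RefSeq genes in that gap.

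PTGS2, on chromosome 1 (186671791 to 186680423), encodes the inducible cyclooxygenase. It had 2598, 2503 and 2628 counts in control and 10598, 9507 and 9396 counts in knockout libraries. Scaled to depth these were 140.3, 131 and 137 CPM against 570, 568 and 578 CPM. The knockout libraries were within 10 CPM of each other and 4.198 times as high as the control libraries (136 ± 4.74 and 572 ± 5.24 CPM, mean ± SD). The fitted log2 fold change was 2.07 ± 0.043 (SE).

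PTGS1 encodes the constitutive cyclooxygenase. It had 12, 6 and 8 counts in control and 7, 12 and 6 counts in knockout libraries, so the groups overlapped. Summed, the ratio of knockout to control was 1.08, with an exact 95% counting interval of 0.596 to 1.94 that covers counting error only. At this depth a change within that interval was not detectable. Per length, in FPKM (counts per kilobase of gene length and per library total, as deposited), PTGS2 was 468, 902 and 711 times the level of PTGS1 in the control libraries. The ratio was 2092, 1095 and 2164 in the knockout libraries, so cyclooxygenase mRNA was nearly all PTGS2 in both groups.

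PTGES, on chromosome 9 (129738349 to 129753042), encodes the inducible microsomal prostaglandin E synthase. It showed the largest upward ratio of the 10 genes in CPM. Its level was 39.3, 44.7 and 40.7 CPM in control libraries and 263, 263 and 250 CPM in knockout libraries. Means were 41.6 ± 2.82 and 259 ± 7.76 CPM, a ratio of 6.22, and the fitted log2 fold change was 2.64 ± 0.053 (SE). No library of one group came near the other group.

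PTGES2 and PTGES3 encode the other E synthases, a Golgi membrane protein and the cytosolic HSP90 co-chaperone p23. PTGES2 was at 83.5, 87.7 and 89.1 CPM in control libraries and 90.0, 95.7 and 92.4 CPM in knockout libraries. The ranges did not overlap but nearly touched, the ratio of means was 1.07, and the gene was the 1 of the 8 that was not called. PTGES3 went the other way, from 566, 595 and 545 CPM to 359, 346 and 365 CPM. Its knockout mean was 0.627 times the control mean (log2 fold change -0.67 ± 0.042, SE). PTGES3 has processed pseudogenes, and how the counting treated reads that they share is not stated in the labels.

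The 3 E synthase genes together therefore differed in make-up between the groups. As a share of their summed FPKM, PTGES was 10.8, 11.6 and 11.3% in control libraries and 50.02, 50.2 and 48.2% in knockout libraries. PTGES3 was 69.9 ± 1.02% (SD, n = 3) of the sum in control and 34.5 ± 1.17% in knockout libraries, and PTGES2 was 18.9 ± 0.898% and 16.04 ± 0.502%. With the control group's gene lengths used for both groups, PTGES was 52.3 ± 1.09% in the knockout libraries. A share shows unequal change, and does not show which of the 3 changed.

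**Figure D2:**
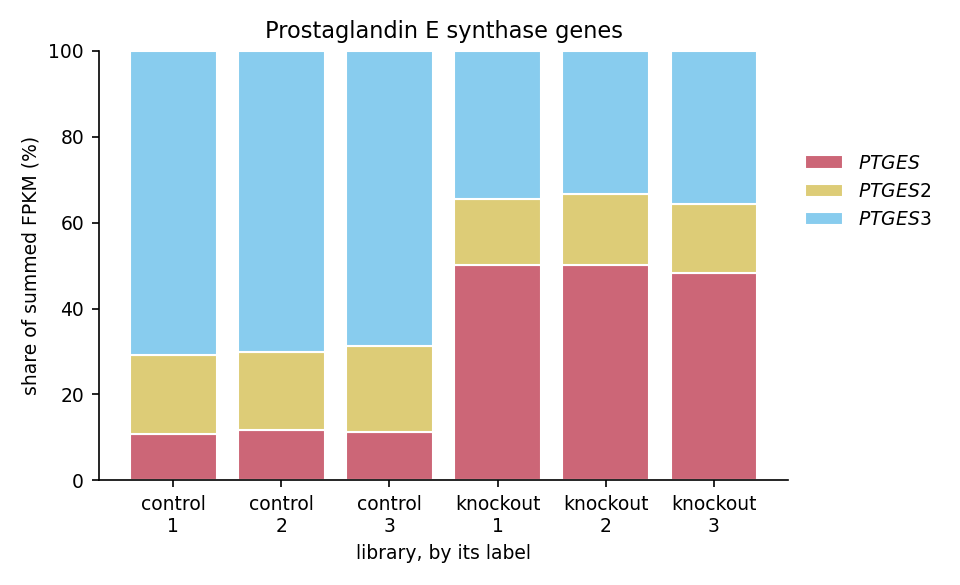
Share of the summed FPKM of PTGES, PTGES2 and PTGES3 (vertical, percent) in each of the 6 libraries (horizontal, by label and replicate). PTGES takes 10.8 to 11.6% in the control and 48.2 to 50.2% in the knockout libraries.

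PTGIS encodes prostacyclin synthase, on chromosome 20 (49503874 to 49568137). It had 9, 11 and 11 counts in control and 0 in each knockout library. Against a floor of 3 counts over the knockout group, the summed level was at least 9.23-fold lower there. The control level was itself low, at 0.546 ± 0.052 CPM.

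PTGER4 encodes EP4, a receptor for prostaglandin E2 that raises cyclic AMP. It had 136, 104 and 128 counts in control and 45, 33 and 45 in knockout libraries. In CPM these were 7.35, 5.45 and 6.69 against 2.42, 1.97 and 2.77, so the highest knockout library lay below the lowest control library. The ratio of means, control over knockout, was 2.72, and the fitted log2 fold change was -1.44 ± 0.18 (SE). It had the widest spread within groups of the 8, with an SD of log2 CPM of 0.226, where the median of all tested genes was 0.0874.

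HPGD and PTGR1 act in breakdown. HPGD, on chromosome 4, encodes the dehydrogenase that inactivates prostaglandin E2. PTGR1, on chromosome 9, encodes an enzyme that reduces the resulting keto product and also acts on leukotriene B4. HPGD was at 40.1, 43.2 and 38.8 CPM in control and 71.8, 68.2 and 71.0 CPM in knockout libraries, a ratio of 1.73. PTGR1 was at 136, 146 and 134 CPM in control and 340.2, 326 and 332 CPM in knockout libraries, a ratio of 2.40. Both were higher in every knockout library than in any control library. Their log2 fold changes were 0.79 ± 0.059 and 1.26 ± 0.045 (SE).

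The FPKM of PTGS2 was 3.52, 3.05 and 3.56 times that of HPGD in the control libraries. It was 7.62, 8.0 and 7.81 times that of HPGD in the knockout libraries, or 8.18 ± 0.201 (SD, n = 3) with the control lengths for both groups. PTGES was 0.640 ± 0.066 times PTGS2 in FPKM in the control and 1.16 ± 0.045 times in the knockout libraries. So in FPKM PTGES lay below PTGS2 in one group and above it in the other. That switch rests on the shorter PTGES length of the knockout tables, which was 1751 bases, against 2148 in control tables. With the control lengths for both groups, PTGES would lie below PTGS2 in every library.

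These sizes depend in part on the gene lengths behind the FPKM, which differ between the groups' tables. Of the 9 genes with a recovered length in both groups, 1 (PTGS2, with 4493 and 4510 bases) agreed within 1%, where 32.3% of all genes did. The length of PTGER4 was 4131 bases in control but 2277 in knockout tables, that of PTGES3 was 4736 and 3469, and that of PTGES2 was 2676 and 1938. On the FPKM scale the ratio of knockout to control means was 0.680 for PTGER4 (0.367 in CPM), 0.872 for PTGES3 and 1.503 for PTGES2. That of PTGES was 7.77, of PTGR1 1.99, of PLA2G4A 3.27 and of PTGS2 4.26. Thus PTGS2 and PLA2G4A had nearly the same ratio on both scales, and PTGER4 and PTGES3 were much nearer to no difference in FPKM.

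**Figure D3:**
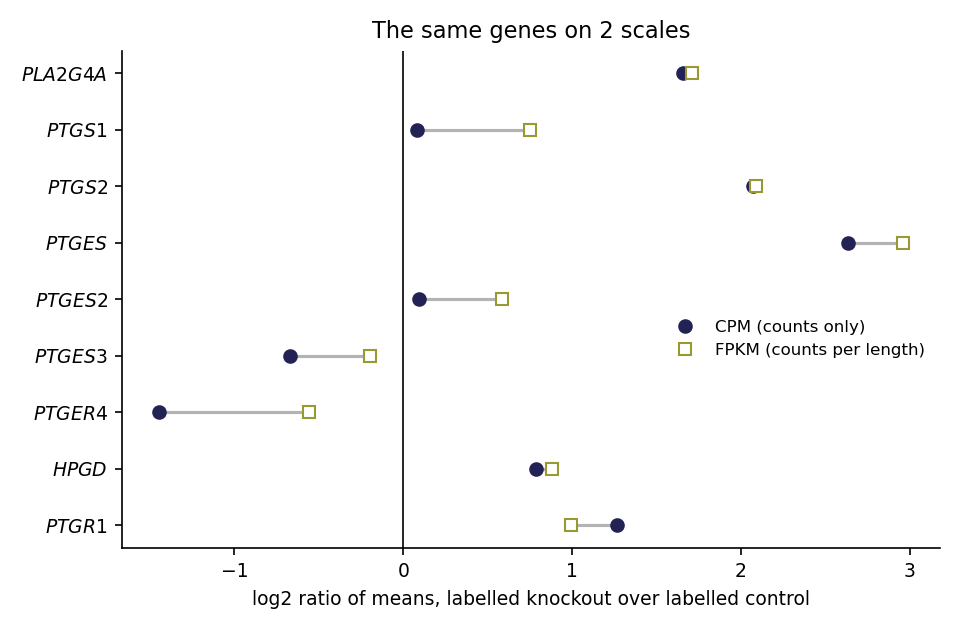
Log2 ratio of the group means (horizontal, knockout over control) for the 9 genes with counts in both groups (vertical), in CPM (filled circles) and FPKM (open squares). PTGS2 and PLA2G4A are nearly the same on both scales. PTGER4, PTGES, PTGES2, PTGES3 and PTGS1 move to the right in FPKM, HPGD slightly so, and PTGR1 moves to the left.

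Per length, the order of the 10 genes also differed between the groups. In control libraries PTGES3 was the highest at 117 ± 5.26 FPKM (SD, n = 3), followed by PTGR1 at 78.1 ± 3.77, PTGES2 at 31.6 ± 0.971 and PTGS2 at 29.5 ± 1.09. PTGES2 and PTGS2 overlapped there, and no other neighbours in the order did. In knockout libraries PTGR1 was the highest at 155 ± 3.36 FPKM, followed by PTGES at 146 ± 3.57, PTGS2 at 126 ± 1.88 and PTGES3 at 102 ± 3.31, with no overlap between neighbours. PTGES would fall below PTGS2 there with the control lengths for both groups. HPGD, PTGER4, PTGIS and PTGS1 took the last 4 places in both groups, with PTGIS listed at 0 in the knockout tables.

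The start regions of PTGS2, PTGES and PTGER4 are shown because PTGS2 and PTGES had the largest ratios of the 8 genes upward and PTGER4 the largest downward. Each is the 250 bases before the RefSeq start (GRCh38.p14), on the gene's own strand, with matches to searched motifs in capitals. PTGS2 is chr1:186680424-186680673 (minus strand), PTGES is chr9:129753043-129753292 (minus strand) and PTGER4 is chr5:40679665-40679914 (plus strand).
PTGS2: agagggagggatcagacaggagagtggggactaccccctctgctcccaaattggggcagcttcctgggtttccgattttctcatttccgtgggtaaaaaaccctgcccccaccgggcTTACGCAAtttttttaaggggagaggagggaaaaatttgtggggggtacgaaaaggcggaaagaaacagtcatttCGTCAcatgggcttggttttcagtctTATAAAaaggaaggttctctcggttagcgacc
PTGES: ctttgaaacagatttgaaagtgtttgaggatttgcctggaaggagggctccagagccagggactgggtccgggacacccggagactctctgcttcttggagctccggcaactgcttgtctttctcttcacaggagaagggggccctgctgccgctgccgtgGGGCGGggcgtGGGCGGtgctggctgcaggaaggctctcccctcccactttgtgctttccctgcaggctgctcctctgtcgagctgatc
PTGER4: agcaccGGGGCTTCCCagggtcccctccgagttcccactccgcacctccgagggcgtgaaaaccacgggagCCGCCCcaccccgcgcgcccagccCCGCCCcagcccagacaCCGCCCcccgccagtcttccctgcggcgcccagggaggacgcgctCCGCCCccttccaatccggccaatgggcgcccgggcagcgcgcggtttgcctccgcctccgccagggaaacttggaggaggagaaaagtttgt
Counting the last base before the start as -1, the PTGS2 region holds a TATA box (TATAAA) at -32 to -27, the core of a cyclic AMP response element (CGTCA) at -58 to -54 and a C/EBP motif (TTNCGNAA) at -133 to -126. The PTGES region holds GC boxes (GGGCGG) at -89 to -84 and -78 to -73. The PTGER4 region holds 4 GC boxes, all on the other strand, and an NF-kB motif at -244 to -235 that reads on both strands. None of the marked matches overlap.

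All motifs were searched on both strands, and a match is a description of letters, not a binding site. Of 35116 RefSeq start regions of this length, 10.7% held the TATA box, 2.18% the C/EBP motif, 21.2% the CGTCA core, 42.6% a GC box and 9.96% the NF-kB motif. Also searched were CACGTG (6.34%), the antioxidant response element core TGACNNNGC (10.9%) and the AP-1 motif TGANTCA (6.57%). RefSeq start regions matched 9 of the 10 genes, some with more than 1 start. The C/EBP motif was found in 1 of the 9, PTGS2, and the GC box in 6. The regions of PLA2G4A and PTGR1 held none of the 8 motifs. Whether the motifs of a start region go with its gene's level was not tested.

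The other genes of the eicosanoid pathway come from 4 lists of 87 symbols, of which 72 were in the tables and 46 could be tested. By edgeR's quasi-likelihood test (adjusted over all 12929 genes), 38 of the 46 rose, 7 fell and 1 (FAAH) did not pass, against 42% higher and 43% lower among all tested genes. Their median log2 fold change was 1.16, beside -0.007 for all tested genes. These lists, and the regulator list below, were chosen with earlier results of these data known. Their shares and the adjusted p of their genes are therefore a description, and no set test was run. PTGFR, at 0 counts in control, lies above its list's median also at its lower bound. Of the 46, ALOX12B, ALOX5AP, PTGER2, PTGFR and TBXA2R had under 10 counts in every library of 1 group and so entered the test through the other group. With at least 10 counts required in each library, 33 of 38 rose and 4 fell.

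Among phospholipase and arachidonate handling genes, 10 of 14 tested rose and 3 fell. PLA2G6, a calcium-independent phospholipase A2, rose from 6.66 ± 0.246 to 28.0 ± 0.499 CPM (SD, n = 3; adjusted p = 1.93e-20). LPCAT3, which puts arachidonate back into phospholipids, rose 1.61-fold (adjusted p = 4.49e-14). The lysosomal phospholipase gene PLA2G15 fell from 38.2 ± 4.09 to 14.8 ± 0.68 CPM, and the phospholipase receptor gene PLA2R1 fell from 29.3 ± 2.13 to 9.12 ± 0.586 CPM. With its lengths of 8330 and 15872 bases as an offset, the log2 fold change of PLA2R1 was -2.62, against -1.69 in counts. Thus genes of this list moved in both directions. Of all tested genes, PLA2G6, GSE1 and IGFBP1 had the profile nearest to PTGS2 over the 6 libraries. Their root mean square difference was 0.012, 0.022 and 0.026 in centred log2 CPM, and their log2 fold changes were 2.07, 2.05 and 2.12. With so little spread within the groups, such nearness mostly means an equal fold change, so these fold changes follow from the choice. With the length offset the log2 fold change of PLA2G6 was 2.59, against 2.06 for PTGS2.

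Of 8 other prostanoid synthase and reductase genes, 7 rose and 1 fell. AKR1C3, which makes prostaglandin F from prostaglandins H and D, rose from 309 ± 12.1 to 938 ± 25.1 CPM (adjusted p = 4.05e-27), though the counting may have split reads among its close paralogs. CBR1, a carbonyl reductase that acts on prostaglandin E2, rose from 53.9 ± 0.313 to 164 ± 2.01 CPM. MGST1, a microsomal relative of PTGES, rose 2.61-fold, and the thromboxane synthase gene TBXAS1 rose 4.38-fold from 1.96 ± 0.13 CPM. ZADH2, a reductase of keto prostaglandins, was the 1 that fell, from 65.2 ± 1.74 to 34.7 ± 1.11 CPM (adjusted p = 8.46e-16).

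Of 7 tested receptor and transporter genes, 6 rose and 1 fell. The number that fell was 2 without control replicate 1, knockout replicate 2 or knockout replicate 3, 3 with no filter on low counts, and 0 with 10 counts required in each library, where 4 rose. PTGER2, PTGFR and TBXA2R (42.9% of the 7, against 5.62% of all tested genes) had under 10 counts in every library of 1 group. They entered the test through the other group, so their calls add no support. PTGER2 encodes EP2, which like EP4 raises cyclic AMP. It had 6, 5 and 7 counts in control and 52, 30 and 33 in knockout libraries, a summed ratio of 7.15 (95% counting interval 4.33 to 12.5). EP2 and EP4 mRNA thus lay on opposite sides: control libraries had more PTGER4 and knockout libraries more PTGER2. The other E receptor genes were too low to test. PTGER1 had 8, 15 and 19 counts in control and 3, 8 and 5 in knockout libraries, so the control sum was 2.35 times the other (95% counting interval 1.29 to 4.47). PTGER3 had 0 in control libraries and 1, 0 and 0 in knockout libraries. PTGIR, the prostacyclin receptor gene, was also too low to test, with 10, 2 and 11 counts in control and 1, 0 and 2 in knockout libraries (summed ratio 6.85, 95% counting interval 2.07 to 35.6). PTGFR, the receptor for prostaglandin F, had 0 counts in control libraries and 22, 12 and 15 in knockout libraries, at least 18.3-fold higher against a floor of 3 counts over the control group. TBXA2R, the thromboxane receptor gene, was the 1 that fell: it had 45, 48 and 75 counts in control and 0, 1 and 1 in knockout libraries, a summed ratio of 75.1 (95% counting interval 20.5 to 625).

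Of the transporters, ABCC4, an exporter of prostaglandin E2, rose from 81.1 ± 5.34 to 100.5 ± 1.03 CPM (log2 fold change 0.31 ± 0.053, SE; adjusted p = 2.49e-06). SLCO2A1, the importer that feeds prostaglandins to HPGD, had 0 counts in control libraries and 0, 1 and 1 in knockout libraries. SLCO3A1, a related transporter, rose from 16.8 ± 0.399 to 57.3 ± 4.28 CPM. PTGFRN, a membrane protein that binds the prostaglandin F receptor, rose 4.26-fold, and PPARG, a nuclear receptor for prostaglandin derivatives, rose 1.81-fold. With the recovered lengths of PPARG (11871 and 7074 bases) as an offset, its log2 fold change was 1.60, against 0.85 in counts.

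Lipoxygenase, leukotriene and epoxygenase genes rose in 15 of 17 tested cases and fell in 2, CYP2J2 and MGST3. GGT1 and GGT5, which process leukotriene C4, rose from 33.5 ± 0.961 to 232 ± 10.2 CPM and from 0.863 ± 0.164 to 41.7 ± 0.483 CPM. Near-identical copies of GGT1 may share its reads. EPHX1, an epoxide hydrolase, rose 4.86-fold and CYP4F3, which inactivates leukotriene B4, rose 5.90-fold. CYP2J2, an arachidonate epoxygenase, fell from 4.10 ± 0.789 to 0.560 ± 0.059 CPM. MGST3 was called lower in counts (log2 fold change -0.10, adjusted p = 0.0464) but had a log2 fold change of 1.13 on log2(FPKM + 0.1), where its lengths of 1543 and 666 bases enter. Its call was lost in 10 of the other settings, among them DESeq2, scaling to library size, and leaving out control replicate 1, knockout replicate 2 or knockout replicate 3, so that 1 gene of the list fell there, or 0 with 10 counts required in each library.

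**Figure D4:**
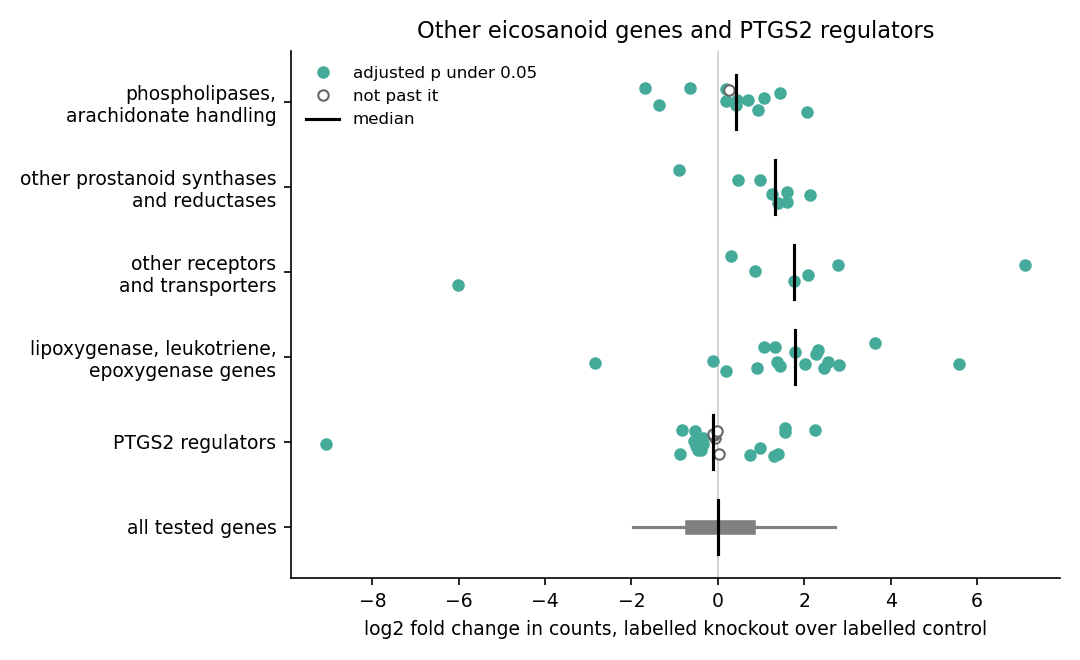
Log2 fold change in counts (horizontal, knockout over control) of the tested genes of 4 eicosanoid lists and of PTGS2 regulators (vertical), with list medians as black bars and, for all tested genes, the middle 50% (thick) and the 5th to 95th percentile (thin). The medians are 0.41, 1.32, 1.77, 1.78 and -0.10 from top to bottom, and -0.007 for all genes; the fitted value of PTGFR, at 0 counts in control, is no measure of size.

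Of 22 known regulators of PTGS2, all tested, 7 rose, 10 fell and 5 did not pass, beside 42% higher and 43% lower among all tested genes. Their median log2 fold change was -0.10, and CELF2 entered the test through the control group only. DUSP1, a MAP kinase phosphatase, rose from 64.1 ± 3.70 to 307 ± 5.30 CPM (adjusted p = 1.62e-29). NR3C1, the glucocorticoid receptor gene, rose from 88.7 ± 7.01 to 218 ± 5.63 CPM, and ANXA1, a glucocorticoid-induced inhibitor of phospholipase A2, rose 2.64-fold. CELF2, an RNA-binding protein that can hold back translation of PTGS2 mRNA, fell from 1040, 1004 and 1137 counts to 0, 2 and 3 (summed ratio 569, 95% counting interval 243 to 1752). Chosen once their values were known, the C/EBP genes CEBPB and CEBPD rose 1.67-fold and 2.92-fold. NFKB1, JUN and ELAVL1, which stabilises PTGS2 mRNA, fell by 0.88, 0.83 and 0.51 on the log2 scale. On log2(FPKM + 0.1) 10 of the 22 rose and 7 fell, and TIA1 and ZFP36L1, which bind AU-rich mRNAs, changed sides there (log2 fold changes 0.58 and 0.33, against -0.53 and -0.35 in counts). The regulators as a list therefore had no direction that held on both scales.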

How the data were processed

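RNA-seq of 6 libraries (3 per group) was analysed. The authors deposited, for each library, counts per gene symbol and, in a separate table, FPKM. Tools named, per the submitters' processing notes, are HISAT2 2.2.1.0, Trimmomatic 0.36 and FastQC 0.11.5, and the build is GRCh38. The read counter, its annotation and strand use were not given in the sources used here. Gene lengths were recovered as count divided by FPKM and a library total. That total was fitted in each library to make the lengths whole, and was not the summed counts. With it the lengths came out whole within 0.05 bases for 100% of genes with a value.

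Counts were fitted with edgeR 4.0.16 in R 4.3.3 (filterByExpr, TMM factors 0.989 to 1.02, glmQLFit robust, glmQLFTest, two-sided, Benjamini-Hochberg over 12929 genes, threshold 0.05). CPM use the same factors. Counting intervals are exact conditional binomial and, like the floor of 3 counts, cover counting error only. The method was tested on simulated counts with few genes changed and a common dispersion. That setting differs from these data, where most genes were called, so it does not show how the method does here. Libraries of a group differed by more than counting noise (chi-square over its degrees of freedom, 1.73 to 8.04). Alternatives were other scalings, filters, DESeq2 1.42.0, limma 3.58.1 (voom, and log2 FPKM), recovered lengths as an offset, a replicate block, leaving out each library, and a threshold of 0.01; control lengths for both groups were added after the data were seen. Gene positions and start regions are RefSeq's. Figures were drawn in Python 3.11.15.

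The genes and lists were chosen with earlier results of these data known. Named were all 10 genes, up to 4 called genes of each list by smallest p with a mean of at least 5 CPM, PTGER1, PTGER2, PTGER3, SLCO2A1, ABCC4, AKR1C3 and CBR1, CDKN2A and CDKN2B, and the 3 genes nearest to PTGS2. Others (PTGFR, TBXA2R, PTGIR, TBXAS1, CYP2J2, MGST3, FAAH, ALOX12B, ALOX5AP and the regulators beyond the first 4) were named after their values were seen. A further marker list is not reported here.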

Additional observations from a re-analysis of the deposited data

How the results depend on the processing

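The direction of the 8 tested prostaglandin genes was the same in all 136 values from the alternatives, and 22 of these moved by more than 1 SD between replicates, from upper-quartile scaling, FPKM or the length offset. PTGES2 was 0.09 on the log2 scale in counts and 0.59, 0.57 and 0.56 on log2(FPKM + 0.1), log2(FPKM + 1) and with the length offset; PTGER4 was -0.52, -0.31 and -0.58 there, and PTGES3 -0.20, -0.20 and -0.22. The number of these genes called higher was 5 or 6, depending on PTGES2, and the number called lower 2 or 3. With no filter, 3 were called lower, PTGIS included, and leaving out a library gave 2 to 3.

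Of the other pathway genes, 33 to 42 were called higher and 4 to 9 lower. The counts of 33 and 4 came with 10 counts required in each library, and those of 42 and 9 with no filter. Leaving out a library gave 37 to 38 higher and 7 lower. TIA1 was 0.58, 0.53 and 0.56 on log2(FPKM + 0.1), log2(FPKM + 1) and with the length offset, ZFP36L1 was 0.33, 0.32 and 0.30, and MGST3 was 1.13, 1.12 and 1.11, each against a negative value in counts. MGST3 kept its direction but lost its call in 10 further settings. TIAL1, not called at -0.02, was 0.61, 0.59 and 0.59 there, and 0.0068 by library size, 0.068 by upper quartile, 0.012 with 10 counts in each library and -0.038 to 0.0025 on leaving out a library. Deviations of same-numbered libraries correlated at 0.018, -0.025 and -0.0078, so no pairing by replicate number was seen. Whether same-numbered libraries were handled together is not stated in the labels. With the replicate block, 5397 genes were called higher and 5513 lower, against 5428 and 5564 without it, and 5 and 2 of the prostaglandin genes. Depth limits PTGS1 and PTGER3, where a change within the counting interval or under the floor could not be detected.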
